A study of Mus musculus with 6 samples.

Results

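Of the methylated sequence found in the juvenile mouse hippocampus, 667 regions outside promoters carried a peak in every mouse injected with ethanol and in no mouse injected with saline. They were chosen from 6 peak lists made by MeDIP-seq. In this assay an antibody to 5-methylcytosine precipitates methylated fragments of sonicated DNA, the fragments are sequenced, and stretches rich in them are called as peaks. Peaks of all lists that shared at least 1 bp were merged to 48853 regions, of which 46696 lay on chromosomes 1 to 19 and 45288 of these held no peak that the authors classed as promoter (summit within 2000 bp of an annotated coding start). The 667 regions are 1.47% of these 45288, and 48 regions (0.106%) had the opposite pattern, 3 saline and 0 ethanol libraries. The peak calls themselves chose the regions, so their presence after ethanol and absence after saline is a description and not a test.

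The mice were male C57BL/6 littermates studied at postnatal day 21. Each ethanol pup (n = 3) had been dosed at 2.5 g/kg, dissolved in 0.15 M NaCl, and each control pup (n = 3) with 0.15 M saline alone. Dosing was subcutaneous, with 2 injections a day on postnatal days 4 and 7. The sources used here do not say which pups came from one litter, and the tests treat the animals as independent. The DNA came from whole hippocampus, so a region methylated in few cells and one methylated weakly in many cannot be told apart. A missing peak shows that a region did not pass the calling threshold in that list, not that it was unmethylated.

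In mammals DNA methylation sits mainly on cytosines followed by guanine (CpG), and most CpG outside active promoters and enhancers are methylated, including those in gene bodies and in the repeats left by transposable elements, where methylation helps to keep the elements silent. In brain, neurons also gain methylation on other cytosines after birth, chiefly before adenine. MeDIP recovers a fragment better the more methylated cytosines it holds, so CpG-dense methylated sequence gives the tallest peaks.

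The 6 sequences that follow show the kinds of DNA among the 667 regions: the region with the highest rank in its lists, near Zfp791, the 2 highest ranked in gene bodies, in Apaf1 and Wnt16, a CpG-dense region near Grik2, a region near Kdelr2 made wholly of repeat, and a region near Ptbp2 with hardly any CpG. Each is the 300 bp about the mean summit of the ethanol peaks, read from the plus strand of RefSeq's GRCm38 (mm10) assembly, with CpG in capitals.
Zfp791, chr8:85126067-85126366: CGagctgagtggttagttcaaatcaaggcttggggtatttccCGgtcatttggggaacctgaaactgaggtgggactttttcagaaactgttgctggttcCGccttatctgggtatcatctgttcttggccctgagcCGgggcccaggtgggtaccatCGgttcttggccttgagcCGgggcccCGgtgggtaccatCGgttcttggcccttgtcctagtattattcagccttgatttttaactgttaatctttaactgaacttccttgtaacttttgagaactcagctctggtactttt
Apaf1, chr10:90995542-90995841: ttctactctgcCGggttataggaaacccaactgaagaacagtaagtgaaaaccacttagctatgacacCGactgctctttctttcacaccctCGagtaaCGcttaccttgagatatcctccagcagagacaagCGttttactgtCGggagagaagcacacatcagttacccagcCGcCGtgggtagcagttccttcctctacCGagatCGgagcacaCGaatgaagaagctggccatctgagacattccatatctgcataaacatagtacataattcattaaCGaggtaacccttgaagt
Wnt16, chr6:22290994-22291293: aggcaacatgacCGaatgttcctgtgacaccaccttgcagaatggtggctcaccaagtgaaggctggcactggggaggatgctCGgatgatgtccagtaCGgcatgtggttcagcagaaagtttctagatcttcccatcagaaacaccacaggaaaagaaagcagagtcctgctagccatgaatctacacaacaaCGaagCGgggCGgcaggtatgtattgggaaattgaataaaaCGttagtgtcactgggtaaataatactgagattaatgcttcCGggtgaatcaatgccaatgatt
Grik2, chr10:50022616-50022915: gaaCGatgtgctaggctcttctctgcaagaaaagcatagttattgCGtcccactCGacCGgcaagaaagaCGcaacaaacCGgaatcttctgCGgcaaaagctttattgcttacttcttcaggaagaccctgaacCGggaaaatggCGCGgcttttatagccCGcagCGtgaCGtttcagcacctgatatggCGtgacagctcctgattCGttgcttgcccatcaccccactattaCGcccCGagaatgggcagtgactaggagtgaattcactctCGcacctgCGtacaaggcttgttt
Kdelr2, chr5:143428577-143428876: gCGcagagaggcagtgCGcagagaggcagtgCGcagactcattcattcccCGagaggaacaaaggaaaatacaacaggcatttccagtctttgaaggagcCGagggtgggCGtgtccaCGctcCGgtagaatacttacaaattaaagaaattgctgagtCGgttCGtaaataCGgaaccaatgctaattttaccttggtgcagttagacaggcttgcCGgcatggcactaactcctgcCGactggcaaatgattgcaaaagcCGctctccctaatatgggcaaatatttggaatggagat
Ptbp2, chr3:119334448-119334747: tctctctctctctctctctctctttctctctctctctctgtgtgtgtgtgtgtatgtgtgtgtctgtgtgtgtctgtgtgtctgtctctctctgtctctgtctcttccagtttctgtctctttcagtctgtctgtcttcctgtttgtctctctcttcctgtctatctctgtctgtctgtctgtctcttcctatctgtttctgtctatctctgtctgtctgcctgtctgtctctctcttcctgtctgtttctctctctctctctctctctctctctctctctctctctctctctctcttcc
The windows held 8 CpG near Zfp791, 12 in Apaf1, 8 in Wnt16, 19 near Grik2, 14 near Kdelr2 and 0 near Ptbp2. The Apaf1 window held no base that the reference masks as repeat, and the Wnt16 window held 7.67% masked bases. Masked bases made up 59.0% of the window near Zfp791 and 87.3% of the one near Grik2. The windows near Kdelr2 and Ptbp2 were masked throughout. The Ptbp2 window has runs of alternating cytosine and thymine at both ends.

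The number of regions that met the rule changed when the lists were cut to equal length. The lists of ethanol replicates 1, 2 and 3 held 23141, 34904 and 28386 peaks, and those of saline replicates 1, 2 and 3 held 18922, 22703 and 20776. The ethanol mean was 28810.3 ± 5893 and the saline mean 20800.3 ± 1891 (SD, n = 3 each), and the groups did not overlap (two-sided exact permutation p = 0.1, the smallest that 3 against 3 can give). The lowest background pileup that each list's fold enrichments were set against was 2.16, 2.33 and 2.34 in the ethanol and 1.85, 2.65 and 2.02 in the saline lists, so the groups overlapped in this value. It is at most a rough guide to relative depth, and its link to read counts was not tested. With every list reduced to its 18922 most significant peaks, 196 regions were ethanol-only and 177 saline-only, and 168 of the 667 regions were called under that setting too. That cut kept peaks down to a -log10 q of 15.2, 20.8 and 17.8 in ethanol replicates 1, 2 and 3. In saline replicates 1, 2 and 3 it kept them down to 5.0, 15.3 and 12.6. List length and threshold thus changed together, and the part of list length in the count was not tested.

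**Figure D1:**
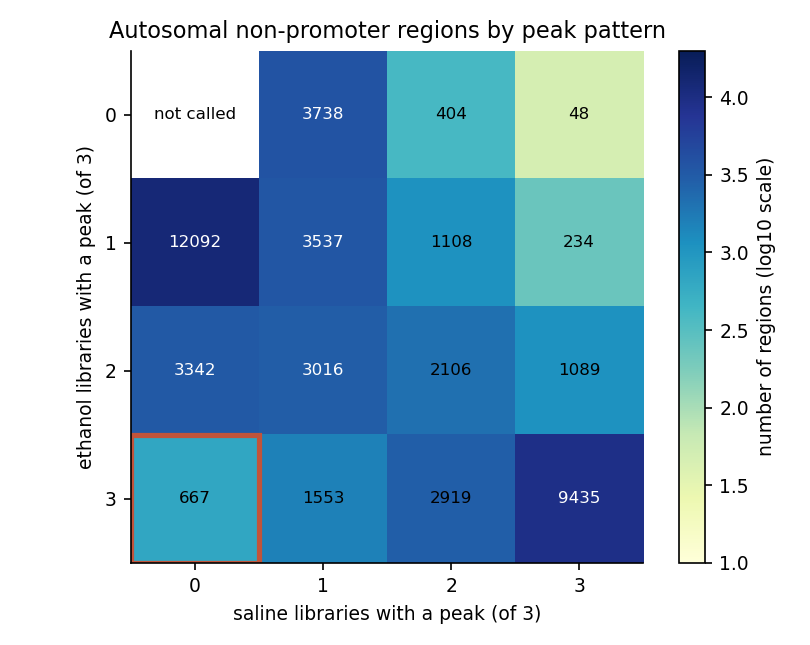
Number of autosomal regions without a promoter peak by how many of the 3 ethanol libraries (rows) and 3 saline libraries (columns) held a peak, with colour on a log10 scale. The outlined cell holds the 667 ethanol-only regions, against 48 in the opposite corner and 9435 held by all libraries.

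Regions just outside the rule were more numerous than those inside it. A peak in all 3 ethanol and 1 saline library was found at 1553 regions: the saline library was replicate 2, which had the longest saline list, at 697 of them, replicate 3 at 476 and replicate 1 at 380. The -log10 q of that single saline peak had a median of 18.2, and it was under 10 at 6.18% of the 1553 regions. A peak in exactly 2 ethanol and no saline libraries was found at 3342 regions, of which 2053 lacked it in ethanol replicate 1, the shortest ethanol list. On the promoter side of the rule, 5 of the 667 regions had a summit under 2500 bp from a start, the closest at 2038 bp, and 21 autosomal regions with the ethanol-only pattern were left out for a promoter peak, the farthest of them with its nearest summit at 1888 bp.

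The peaks that made up the ethanol-only regions were of low to middle rank in their own lists. Their -log10 q had a median of 17.1 in ethanol replicate 1, 19.5 in replicate 2 and 18.4 in replicate 3, their fold enrichment (the authors' ratio of summit to local background) 7.10, 7.20 and 7.02, and their summit pileup 32, 36 and 35 tags. Ranked within each list by -log10 q, the median region stood at percentile 26.9, 40.0 and 36.2. Regions held by 2 ethanol and 1 saline library stood at 30.8, 40.7 and 35.8 in the same lists. The ethanol-only regions thus ranked lower than these in the list of replicate 1 and within 1 percentile point of them in the other ethanol lists.

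Among the 667, 311 regions were below percentile 50 in all 3 ethanol lists, 35 were above it in all 3, and 1, near Zfp791, was in the top 10% of all 3. The weakest of the 3 peaks of a region had a -log10 q between 5.69 and 61.6, with a median of 15.2, and it was under 10 in 80 regions. The weakest peak was that of replicate 1 in 324 regions, of replicate 3 in 205 and of replicate 2 in 138. The highest of a region's 3 fold enrichments was 1.22 times the lowest in the median region (quartiles 1.14 and 1.35). Across the 667 regions the Spearman correlation of -log10 q between ethanol lists was 0.440 for replicates 1 and 2, 0.362 for 1 and 3, and 0.423 for 2 and 3, given as a description of peaks that all passed the same threshold.

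**Figure D2:**
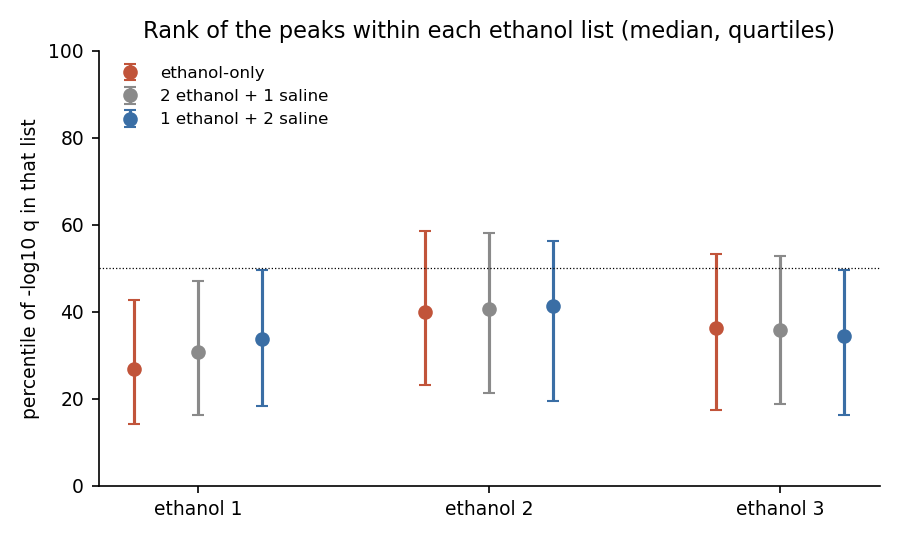
Percentile of -log10 q within each ethanol list (0 is the weakest peak of the list) for ethanol-only regions, regions held by 2 ethanol and 1 saline library and regions held by 1 ethanol and 2 saline libraries, as median (point) and quartiles (bars). Medians of ethanol-only regions were 26.9, 40.0 and 36.2, all under the dotted line at 50.

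By the authors' coding annotation most ethanol-only regions lay between genes. The class was intergenic for 516 regions and gene body for 151 (22.6%), against 27.8% gene body among the 4124 regions held by 3 libraries of mixed treatment and 26.8% among all 45288. The nearest annotated start was a median of 59061 bp away (quartiles 20244 and 174363 bp), upstream of it for 329 regions and downstream for 338, and the mixed regions had a median of 55019 bp. Only 36 regions had a summit under 5000 bp from a start, and 48 were 500000 bp or more from any. The authors' classes rest on coding RefSeq transcripts. In GENCODE release M21, which also holds noncoding and longer transcripts, 306 of the 667 summits (45.9%) fell inside a gene, including 156 of the 516 classed as intergenic. Of all 667, 50 were in a coding exon, 177 in an intron of a coding gene and 4 in an untranslated exon. The share in coding exons was 7.50%, against 6.28% of mixed regions and 7.12% of all.

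The nearest saline peak was seldom close. It lay a median of 22772 bp away, within 1000 bp at 14 regions and within 10000 bp at 169 (25.3%). For mixed regions the nearest peak of a library without the region was a median of 20080 bp away and within 10000 bp at 28.7%. Those libraries include ethanol ones, whose lists were longer, so the distances are not fully alike. For regions held by 2 ethanol and 1 saline library the values were 21864.5 bp and 27.5%.

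CpG density was the clearest difference in sequence from other regions held by 3 libraries. Ethanol-only regions had a median of 2.54 CpG per 100 bp (quartiles 1.67 and 3.37). Regions held by 2 ethanol and 1 saline library had 2.23, regions held by 1 ethanol and 2 saline libraries 1.78, and the 48 saline-only regions 1.31. The median fell with each ethanol library replaced by a saline one, though the quartiles of all 4 sets overlapped. All 45288 regions had a median of 2.21, regions with 3 ethanol and 1 saline library 2.53, and regions held by all 6 libraries 3.42. Regions are not replicates of a treatment, so no test was made over them. GC content was nearly the same throughout, with medians of 48.1% in ethanol-only and 48.0% in mixed regions.

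Regions poor in CpG were fewer among ethanol-only regions than in the other sets held by 3 libraries. Under 1 CpG per 100 bp was found at 83 ethanol-only regions (12.4%), 18.7% of regions with 2 ethanol libraries, 28.1% of those with 1 and 43.8% of saline-only regions, which were 21 of 48. The share was 21.9% of all 45288 regions and 11.3% of regions held by all 6 libraries, so it was as low where every library had a peak. Of the 4839 regions held by exactly 3 libraries, 13.8% were ethanol-only in all and 0.992% saline-only. By CpG density the ethanol-only share was 8.48% under 1 CpG per 100 bp, 12.3% from 1 to under 2, 15.6% from 2 to under 3, 17.4% from 3 to under 5 and 15.7% at 5 or more.

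**Figure D3:**
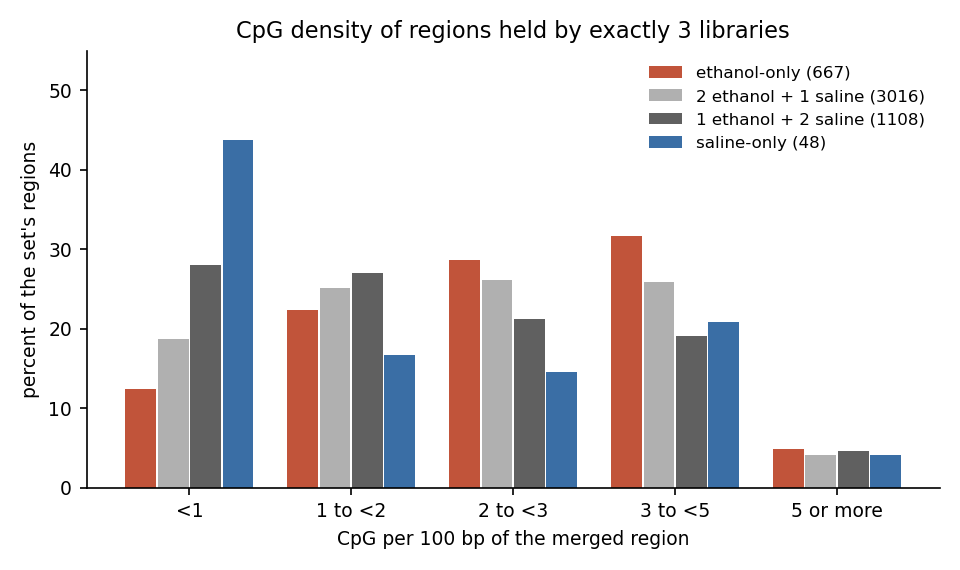
Distribution of CpG density (CpG per 100 bp of the merged region) in regions held by exactly 3 libraries, as percent of each set, with the number of regions of each set in the key. Under 1 CpG per 100 bp lay 12.4% of ethanol-only and 43.8% of saline-only regions, with the mixed sets between them.

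Most of the CpG-poor regions in every set held a run of a simple repeat, though how much of a region such runs covered was not measured. A run of 10 letters of alternating C and A (CACACACACA or TGTGTGTGTG) or C and T (CTCTCTCTCT or GAGAGAGAGA) was present in 65 of the 83 CpG-poor ethanol-only regions (78.3%), in 79.1% of the CpG-poor mixed regions and in 75.03% of all CpG-poor regions. Over whole sets, a C and A run was present in 22.8% of ethanol-only regions, 28.6% of regions with 2 ethanol libraries, 40.0% of those with 1, 37.5% of saline-only regions and 28.4% of all 45288. A C and T run was present in 14.2% of ethanol-only and 14.2% of all regions. Short tandem repeats of this kind are known to be recovered in DNA immunoprecipitation also by nonspecific IgG. The part of such recovery in the sets was not tested, since the IgG pulldown that the labels mention was not analysed here.

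Sequence masked as repeat made up a median of 42.1% of an ethanol-only region (quartiles 12.6% and 82.7%) and 42.8% of a mixed region. Of ethanol-only regions, 20.8% were masked over 90% or more of their length and 21.0% over under 10%. These shares were 15.3% and 18.6% of mixed regions and 19.02% and 19.6% of all 45288, and 35.6% of regions held by all 6 libraries were masked over 90% or more. Gene body members were the less repetitive, with a median of 17.7% masked against 51.0% in intergenic ones, and the same held among mixed regions, with 22.8% and 51.0%.

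The region near Zfp791, which encodes a zinc finger protein, stood above all others (chromosome 8, 85125848 to 85126389). Its summit pileup was 149, 134 and 152 tags in ethanol replicates 1, 2 and 3, with fold enrichments of 5.92, 6.78 and 7.10 and -log10 q of 61.6, 62.7 and 73.5. The 3 values lay close together, and no other ethanol-only region had a weakest -log10 q above 31.3, the value of the one near Api5. The summit was 3096 bp upstream of the Zfp791 start, in an exon of the noncoding gene Gm42031 in GENCODE, and the nearest saline peak was 4321 bp away. Of the region 77.3% was masked as repeat. The sources used here do not say how reads matching several places in the genome were treated.

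The 10 highest ranked gene body regions lay in Apaf1, Wnt16, Slc39a11, Hpcal4, Ror2, Cd244, Nfatc1, Kif26b, Prr5l and Trrap. Apaf1 encodes the scaffold on which caspase 9 is activated once cytochrome c leaves the mitochondria, and its region (chromosome 10, 90995391 to 90995987) covered a coding exon 87027 bp into the gene. It had fold enrichments of 8.78, 8.72 and 8.97, pileups of 44, 50 and 45 tags and -log10 q of 27.1, 30.4 and 28.2 in ethanol replicates 1, 2 and 3, a narrow spread, and the nearest saline peak was 27088 bp away. Wnt16, a secreted Wnt ligand, had its region (chromosome 6, 22290787 to 22291421) over a coding exon 2836 bp from the start. Its fold enrichments were 9.84, 8.54 and 7.78, highest in replicate 1, and the nearest saline peak was 73180 bp away. Hpcal4, which encodes a neuronal calcium sensor of the hippocalcin family, had a region over a coding exon (chromosome 4, 123188934 to 123189481) with 4.38 CpG per 100 bp and folds of 9.18, 6.52 and 7.35. Ror2, a Wnt receptor gene, and Nfatc1, a calcineurin-regulated transcription factor gene, had theirs in introns, each with 9 CpG in the region. The region in an intron of Cd244, a receptor gene of natural killer cells, had 0.479 CpG per 100 bp and both kinds of dinucleotide run.

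The 10 highest ranked intergenic regions were annotated to Zfp791, Api5, Efnb2, Gcm2, Spin1, Egln3, Grik2, Bcl7c, Kdelr2 and March1. Grik2 encodes a kainate receptor subunit, and the region (chromosome 10, 50022511 to 50023126) lay 233925 bp upstream of its start in no GENCODE gene. Its folds were 11.1, 10.9 and 12.6, among the higher ones, and no saline peak lay within 230067 bp. The region near Efnb2, an ephrin ligand gene (chromosome 8, 7163579 to 7164206), had folds of 9.99, 11.0 and 11.3 and was 1496843 bp from the start, so that the gene name marks only the nearest coding start. The region near Kdelr2 (chromosome 5, 143428532 to 143429045) had pileups of 76, 69 and 74 tags but folds of 5.25, 5.14 and 5.25, and a saline peak lay 672 bp away. The regions named for Gcm2, Bcl7c and March1 had their summits in introns of Sycp2l, Bcl7c and March1 in GENCODE.

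The regions were spread thinly over genes. They were annotated to 634 genes: 601 had 1 region, 29 had 2, and Csmd3, Nlgn1, Ptbp2 and Wdr41 had 3, the most for any gene. Csmd3, which encodes a large transmembrane protein expressed in brain, had 3 ethanol-only and 0 mixed among its 23 non-promoter regions. They lay between 569692 bp and 1521666 bp from its start, outside GENCODE genes, and all 3 stood low in the list of ethanol replicate 1, at percentile 17.7, 4.09 and 3.18. In the one at chromosome 15, 49361449 to 49362564, the -log10 q was 9.81 in ethanol replicate 1 and 30.6 and 29.3 in replicates 2 and 3.

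Nlgn1 encodes neuroligin 1, a postsynaptic adhesion protein of excitatory synapses. It had 3 ethanol-only and 3 mixed regions among 32, and the ethanol-only ones had 4.39, 2.08 and 3.96 CpG per 100 bp. Its highest ranked (chromosome 3, 25276093 to 25276707) had folds of 5.55, 6.25 and 5.67, with a saline peak 1803 bp away. Ptbp2, a splicing regulator gene of developing neurons, had 3 ethanol-only and 1 mixed among its 21 regions. The 3 ethanol-only ones had only 0.377, 0.181 and 0.498 CpG per 100 bp. In the one shown above (chromosome 3, 119334287 to 119335082), which lies in an intron of Dpyd in GENCODE, the pileup was 24, 46 and 24 tags in ethanol replicates 1, 2 and 3, highest in replicate 2. Wdr41 had 3 ethanol-only and 0 mixed among its 4 regions. The 3 ethanol-only regions of Wdr41 lay upstream of its start within 35480 bp of each other (chromosome 13, 94931095 to 94966574), with no saline peak within 49665 bp of any.

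Ethanol-only regions lay near each other at about the rate at which they lay near other regions. Another ethanol-only region lay within 100 kb of 48 of the 667 (7.20%), while an ethanol-only region lay within 100 kb of 6.77% of mixed regions and 6.41% of all other regions. Within 50 kb the order was turned, with 3.15%, 3.64% and 3.29%, and within 500 kb the shares were 27.4%, 27.2% and 26.8%. The 48 formed 23 runs, of which 2 had 3 members, at Wdr41 and at Fam76b and Sesn3 (chromosome 9, 13993391 to 14094904). The next longest, of 2 each, were at Gm4980 and Rps3, at Cdh10 and at Pcdh18, and spanned 99476, 98766 and 98528 bp. By chromosome the share of regions that were ethanol-only ran from 0.741% on chromosome 8, with 19, to 1.98% on chromosome 3, with 51.

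Relative to list length, other peaks around the ethanol-only regions were not more frequent after ethanol. The rule did not use these peaks, so their rate was tested. Within 50 kb they numbered 744, 1093 and 918 in ethanol replicates 1, 2 and 3, and 654, 786 and 697 in saline replicates 1, 2 and 3. Of 1000 other autosomal peaks, 34.7, 33.4 and 34.8 lay within 50 kb of an ethanol-only region in ethanol replicates 1, 2 and 3, and 36.5, 36.2 and 35.3 in saline replicates 1, 2 and 3. The groups did not overlap, and the ethanol mean was the lower, 34.3 ± 0.754 against 36.0 ± 0.623 (SD, n = 3 each; difference -1.66, two-sided exact permutation p = 0.1 before and after Benjamini-Hochberg adjustment over the 2 planned tests). With lists of equal length the groups overlapped and the difference was -0.286 (exact permutation p = 0.6), and within 200 kb it was -0.444 (exact permutation p = 0.8).

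**Figure D4:**
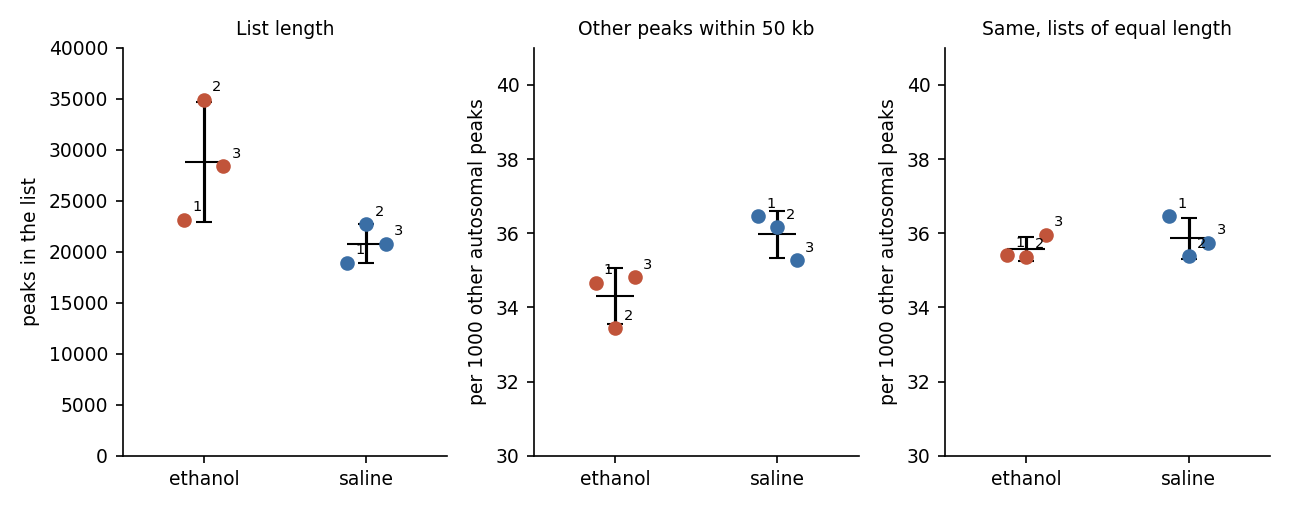
Peaks in each list, other peaks within 50 kb of an ethanol-only region per 1000 other autosomal peaks, and the same with lists of equal length. Points are libraries with their replicate number, bars the mean ± SD of 3, and the axes of the last 2 panels start at 30. Ethanol lists were the longer, and the separation in the middle panel was absent with lists of equal length.

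Receptor and channel genes had small counts of ethanol-only regions, at shares on either side of the share over all regions. Of 178 non-promoter regions annotated to glutamate receptor genes, 4 (2.25%, against 1.47% of all) were ethanol-only: 2 at Grik2 and 1 each at Grin3a and Grin2a, which encode subunits of NMDA receptors. Of 48 regions at GABA receptor genes none was. The rule of 3, which divides 3 by the number of regions, gives a limit of 6.25% for this share. It takes regions as independent draws, which regions of the same 6 libraries need not be, so it is only a rough guide to how little a count of 0 says. Potassium channel genes had 6 of 424 (1.42%), at Kcnh2, Kcna7, Kcnj6, Kcnj3, Kcnmb2 and Kcnt2. Kcnmb2, an auxiliary subunit of calcium-activated channels, had an intronic region (chromosome 3, 32014048 to 32014742) with no CpG at all and folds of 7.14, 10.4 and 6.89, highest in ethanol replicate 2. Calcium channel genes had 2 of 82 (2.44%), at Cacna2d3 and Cacng4, and sodium channel genes 1 of 48 (2.08%), at Scn9a. Among regions held by exactly 3 libraries, of which 13.8% were ethanol-only, the counts were 4 of 15 for glutamate receptors, 0 of 6 for GABA receptors, 6 of 31 for potassium, 2 of 11 for calcium and 1 of 10 for sodium channels.

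Among adhesion and guidance molecules, synaptic adhesion genes had 11 of 569 (1.93%), at Lrfn2, Slitrk1, Lrrtm4, Nlgn1, Slitrk6, Tenm2 and 3 other genes. Cadherin and protocadherin genes, whose products hold cells together by calcium-dependent contacts, had 12 of 649 (1.85%), annotated to Cdh2, Cdh11, Cdh12, Pcdh18, Cdh7, Cdh10 and 4 others. In this and the other lists, the name given for an intergenic region marks only the nearest coding start. The summit was 13332 bp upstream of it for Cdh22 and 1419327 bp downstream for Cdh11. Axon guidance genes had 5 of 437 (1.14%), at Efnb2, Unc5b, Epha2, Efna5 and Plxna2. The region in Epha2, an ephrin receptor gene, covered a coding exon with 5.65 CpG per 100 bp. Among regions held by exactly 3 libraries, 11 of 57 were ethanol-only for synaptic adhesion, 12 of 77 for cadherins and 5 of 50 for axon guidance.

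Growth factor, stress and cell death genes had 1 to 3 ethanol-only regions a list. Counts this small do not place a share above or below the 1.47% of all regions. Neurotrophins and related factors had 3 of 88 (3.41%), at Gdnf, the ligand, and at Gfra1 and Gfra2, coreceptors of its family. The Gfra1 region lay in an intron (chromosome 19, 58357976 to 58358632) with folds of 7.48, 8.31 and 7.35, and the Gdnf region lay 107657 bp from its start with folds of 7.15, 6.73 and 6.87. The Gfra2 region was the weakest of these, with folds of 5.17, 5.31 and 3.86. Cell death genes had 2 of 75 (2.67%), at Apaf1 and Casp12, and stress axis genes 1 of 41 (2.44%), at Avpr1a, a vasopressin receptor gene. Genes of alcohol and aldehyde metabolism had 1 of 54 (1.85%), at Aldh7a1, and free radical scavenging and peroxisome genes 2 of 91 (2.20%), at Pex5l and Txnrd3. Of their regions held by exactly 3 libraries, 3 of 11 were ethanol-only for neurotrophins, 2 of 8 for cell death and 1 of 4 for the stress axis. The counts were 1 of 7 (14.3%) for alcohol and aldehyde metabolism and 2 of 13 (15.4%) for the free radical list, against 13.8% of all such regions.

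Chromatin regulators and imprinted genes likewise had small counts, which do not place their shares above or below 1.47%. DNA methylation machinery had 1 of 39 (2.56%), at Uhrf2, a relative of the cofactor of maintenance methylation. Histone modifiers had 4 of 159 (2.52%), 2 each at Kdm4a, a histone lysine demethylase gene, and Prdm1. Prdm1, with 2 of its 12 regions ethanol-only, was also on the list of developmental transcription factors described below. The histone modifier share thus rests in part on that gene. Imprinted genes had 1 of 161 (0.621%), in an untranslated exon of Dlk1. Genes for hippocampal development and neurogenesis had 4 of 222 (1.80%), at Bcl11b with 2, Sox2 and Reln. Of regions held by exactly 3 libraries, 1 of 4 was ethanol-only for DNA methylation machinery and 4 of 19 for histone modifiers. The counts were 1 of 12 for imprinted genes and 4 of 27 for hippocampal development, against 13.8% of all such regions. Markers of cell types had too few regions to compare with 1.47%: 1 of 11 for choroid plexus, at Kl, and 0 of 11 for neurons, 0 of 11 for astrocytes, 0 of 14 for the oligodendrocyte lineage, 0 of 6 for microglia and 0 of 15 for endothelium. For the counts of 0 here the rough rule of 3 gives limits of 20% or more.

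Olfactory receptor genes, odorant sensors that lie in large clusters of similar copies, had 12 of 383 (3.13%). Among regions held by exactly 3 libraries, 12 of their 34 were ethanol-only (35.3%, against 13.8% of all such regions). Each of the 12 was at a different receptor gene, led by Olfr1130, Olfr382, Olfr25, Olfr213, Olfr1054 and Olfr93. The Olfr1130 region (chromosome 2, 87595985 to 87596646) was masked as repeat throughout, with folds of 7.25, 8.31 and 9.03 and a saline peak 1364 bp away. Vomeronasal receptor genes, another clustered family, had 6 of 401, at Vmn2r75, Vmn2r74, Vmn2r66, Vmn1r100, Vmn1r115 and Vmn1r57. Zinc finger Zfp genes had 13 of 826 (1.57%), among them Zfp791, Zfp64, Zfp934, Zfp637, Zfp521 and Zfp326, and serpin genes 1 of 77, at Serpinb9b. Keratin genes had 0 of 63, for which the rough rule of 3 gives a limit of 4.76%, and Hox genes 0 of 8.

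Developmental transcription factors, a list drawn up after the genes of the regions had been seen, had 36 of 1851 (1.94%), which was 17.1% of their 211 regions held by exactly 3 libraries. Runx3, Foxp1, Runx2, Nr2f2 and Mecom were among the genes with such regions. Foxp1, a forkhead factor gene of the developing forebrain, had 2 regions downstream of its start within 25461 bp (chromosome 6, 98799245 to 98824705), with folds of 8.58, 9.51 and 9.58 in one and 8.78, 8.30 and 8.18 in the other. The numbers behind every list are small, and no share was tested against the rest.

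**Figure D5:**
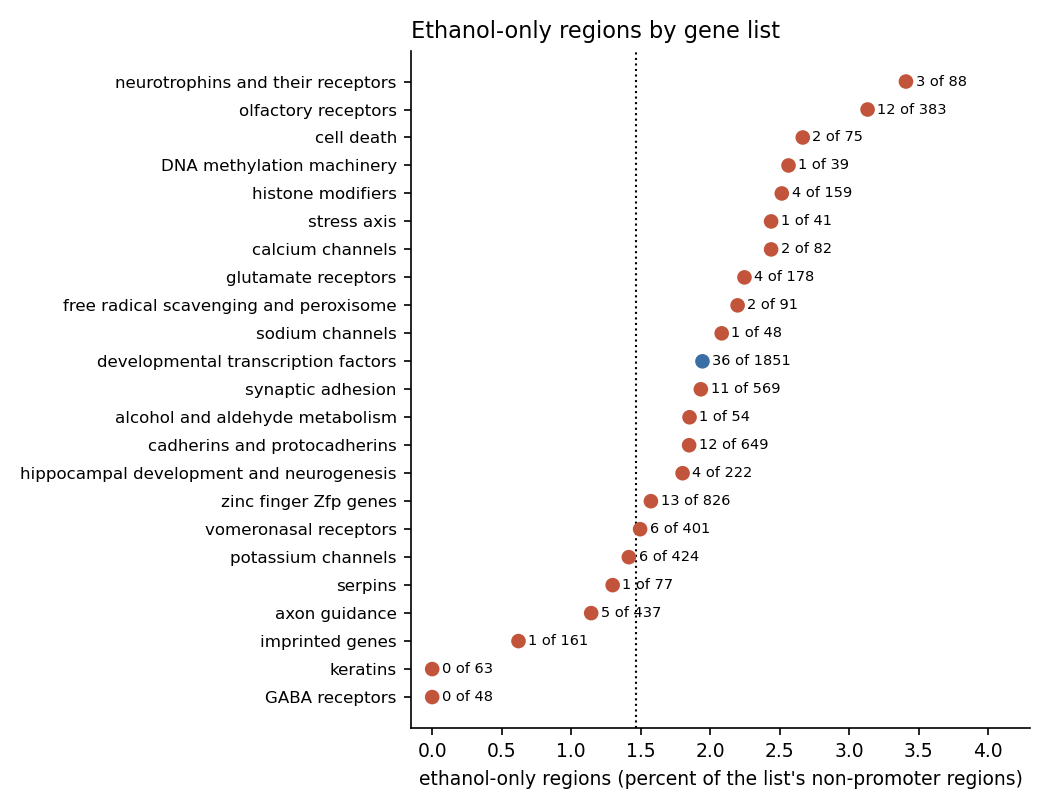
Ethanol-only regions as percent of all autosomal non-promoter regions annotated to each gene list with 30 or more regions, with the counts beside the points. The dotted line is the share over all regions, 1.47%, and the list in blue was drawn up after the genes were seen.

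The 168 regions that were ethanol-only also with lists of equal length were the more CpG-dense part of the 667. Their median was 2.87 CpG per 100 bp, against 2.33 in the other 499, their median masked share 32.3% against 44.6%, and 43 of them (25.6%) were in gene bodies against 21.6%. Their weakest peak had a median -log10 q of 19.6 against 13.9, which follows from how the lists were shortened: the weakest peak kept had a -log10 q of 15.2, 20.8 and 17.8 in ethanol replicates 1, 2 and 3 and 5.0, 15.3 and 12.6 in saline replicates 1, 2 and 3. The 10 highest ranked gene body and 10 highest ranked intergenic regions, ranked by the same -log10 q, were all among the 168. So were the regions at Grik2, Gfra1 and Kcna7. Those at Csmd3, Ptbp2, Kcnh2, Kcnj6, Kcnj3, Kcnmb2, Kcnt2, Grin2a, Grin3a, Gdnf, Gfra2, Epha2 and Kdm4a were not.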

How the data were processed

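MeDIP-seq of hippocampal DNA from 3 ethanol and 3 saline mice was analysed from 1 deposited peak list per library. Per the labels and design text, reads of 150 cycles were aligned to mm10 with Bowtie (Bowtie2 2.1.0 per the submitters' processing notes) and MACS (spelled MASC there), version 2, called the peaks of each library with a threshold q of 1e-4. The sources used here do not say whether a control entered the peak calls. Per the file headers, each deposited peak carries its pileup at the summit (a coverage signal not stated to be scaled to depth), its fold enrichment (a ratio to local background), a q-value column that holds -log10 of q, and the signed distance from the nearest coding start. Its lowest -log10 q was 5.0 to 5.23 in the 6 lists, a stricter limit than stated. Depth can be gauged at most roughly, from the background behind the fold enrichment, and arms of 3 limit precision.

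Each peak was counted once and merged where at least 1 bp was shared, with Python 3.11.15 and pandas 2.3.3. A list of simulated peaks with known patterns was used to test the calls. CpG, masked bases and features came from GRCm38 and GENCODE release M21. On all 21 chromosomes compared, the last peak ended within the reference, and 96.0% of 13910 matched transcript starts lay inside the RefSeq gene. The groups were tested over libraries with exact permutation tests, two-sided (scipy 1.17.1).

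Named genes follow a rule: those with 3 or more regions, the 10 gene body and 10 intergenic regions whose lowest percentile over the ethanol lists was highest, up to 6 genes a list, and the 5 longest runs of regions within 100 kb of each other. The members and gene lists were chosen with earlier results of these data known. Others were named after their values were seen, where the text turns on them. Alternatives were leaving out each library, lists of equal length, a -log10 q of 10 or more, other merging and distance rules, chromosomes X and Y, other flanks and a replicate block.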

Additional observations from a re-analysis of the deposited data

How the results depend on the processing

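The count of 667 ethanol-only regions moved most when lists were cut to equal length and when single libraries were left out. With lists of equal length it was 196, against 177 saline-only regions. Leaving out a library, which asks for 2 libraries in place of 3 on that side, gave 1047 regions at the lowest, without saline replicate 1, and 2720 at the highest, without ethanol replicate 1. It was 1112 without ethanol replicate 2, 1511 without ethanol replicate 3, 1364 without saline replicate 2 and 1143 without saline replicate 3. Saline-only regions numbered 97 to 245 in those settings, fewer in each. Limiting lists to a -log10 q of 10 or more, merging over 200 bp, counting saline peaks within 1000 bp, leaving out summits under 5000 bp from a start and adding chromosomes X and Y gave 631 to 703.

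The difference in peaks per library, 8010, was lowest at 4963, without ethanol replicate 2, and highest at 10845, without ethanol replicate 1. The difference in peaks within 50 kb of a region lay between -2.01 and -1.22 per 1000 when a library was left out. No alternative run for these differences changed its direction. The smallest exact p possible is 0.1 with all libraries, so the p-values say nothing of stability. Equal replicate numbers are not stated to pair animals, so same-numbered libraries were not treated as pairs. Their deviations from their group correlated at -0.0496, -0.0117 and 0.00249, and those of differently numbered libraries at -0.0325 to 0.0470. Whether such correlations could show littermates was not tested. A replicate block (exact sign-flip test, whose smallest p is 0.25) gave p = 0.25 for both differences, 8010 and -1.66. The share in gene bodies was 22.6% by the authors' class and 45.9% by GENCODE.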

Other observations

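On chromosomes X and Y, which the count above leaves out, 36 more non-promoter regions were ethanol-only by the same rule. In the Fam76b and Sesn3 run, 1 of the 3 regions held no CpG, and 28 of the 667 ethanol-only regions had none in the 300 bp about the summit.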
